A study of Mus musculus with 2 samples.

Results

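Red cell barcodes (haemoglobin-dominated barcodes in the plots) were taken as the cell barcodes in which haemoglobin genes, those with symbols starting Hba- or Hbb-, made up over 50% of the UMIs (unique molecular identifiers, each standing for 1 captured RNA molecule). No filter on gene number or mitochondrial share was applied. The rule found 457 of 4993 barcodes: 234 of 2491 in the Cre plus library, 9.39% [8.28, 10.6], and 223 of 2502 in the Cre minus library, 8.91% [7.83, 10.1]. The members were thus chosen by their measured haemoglobin share. Where 2 values stand side by side with no library named, the first is Cre plus and the second Cre minus. Brackets hold exact 95% intervals throughout (Clopper-Pearson for shares, conditional binomial for ratios), which cover counting error only.

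Both libraries came from tumors that formed after 500000 B16F10-OVALBUMIN/ VEGFC cells, a mouse melanoma line made to express a model antigen and a lymphatic growth factor, were injected into the skin of mice. Cre plus hosts had the genotype Ifngr1iProx1, a name that joins the interferon-γ receptor gene Ifngr1 with the lymphatic transcription factor Prox1, and Cre minus hosts the genotype Ifngr1WT. Tumors were taken on day 15, and the 3 tumors of a genotype were combined before sorting of live cells (DAPI-) with the vessel marker CD31 and without the leukocyte marker CD45. A genotype is therefore represented by 1 droplet library of transcript 3′ ends, so no test between genotypes was possible, animals cannot be told apart within a pool, and no p-value is given anywhere. The labels name the cells as endothelial; how Cre was driven and the age of the mice are not given in the sources used here.

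Red cells carry oxygen on haemoglobin, a tetramer of alpha and beta globin chains that each hold an iron-containing haem. Adult alpha chains come from Hba-a1 and Hba-a2, adult beta chains from Hbb-bs and Hbb-bt. During the last steps of their formation the precursors expel the nucleus and become reticulocytes, which still translate stored mRNA while they remove mitochondria and ribosomes. Mature red cells make no new RNA, and the stored mRNA decays over time.

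The promoter sequences of the genes that define these barcodes are shown because Hbb-bs and Hbb-bt, neighbours in the beta globin cluster, took different shares of the beta UMIs across barcodes. Each is the stretch of 250 bases before the RefSeq start of transcription (assembly GRCm38.p6, which is mm10), written 5′ to 3′ on the strand of the gene. Capitals mark matches, on either strand, to 4 motifs. CACCC is the box bound by erythroid Krüppel-like factors and CCAAT is a common promoter box. The letters AGATAA are a form of the motif bound by GATA factors. A TATA-type box was searched as ATATAA.

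Hbb-bs (chr7:103827929-103828178, minus strand): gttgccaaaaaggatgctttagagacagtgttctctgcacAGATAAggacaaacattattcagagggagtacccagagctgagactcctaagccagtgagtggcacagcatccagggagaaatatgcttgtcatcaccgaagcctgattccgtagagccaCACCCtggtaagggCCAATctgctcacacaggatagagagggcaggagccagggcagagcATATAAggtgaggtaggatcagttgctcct

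Hbb-bt (chr7:103813924-103814173, minus strand): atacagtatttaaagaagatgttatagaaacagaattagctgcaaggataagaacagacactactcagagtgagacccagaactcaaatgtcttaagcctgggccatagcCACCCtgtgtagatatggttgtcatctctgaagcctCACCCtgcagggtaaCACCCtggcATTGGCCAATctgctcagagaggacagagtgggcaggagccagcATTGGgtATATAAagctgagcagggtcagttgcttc

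Hba-a1 (chr11:32283422-32283671, plus strand): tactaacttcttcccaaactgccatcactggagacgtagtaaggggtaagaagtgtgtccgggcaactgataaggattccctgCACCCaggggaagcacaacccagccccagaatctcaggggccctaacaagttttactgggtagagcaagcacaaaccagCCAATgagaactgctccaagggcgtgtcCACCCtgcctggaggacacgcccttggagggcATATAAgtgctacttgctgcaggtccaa

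Alas2 (chrX:150547167-150547416, plus strand): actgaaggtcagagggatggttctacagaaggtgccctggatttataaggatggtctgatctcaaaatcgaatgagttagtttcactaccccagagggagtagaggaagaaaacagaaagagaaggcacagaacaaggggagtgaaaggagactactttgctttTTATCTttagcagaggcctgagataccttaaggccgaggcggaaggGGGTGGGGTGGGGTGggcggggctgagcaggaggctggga

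The Hbb-bs and Hbb-bt windows were identical at 77.4% of 239 aligned bases. The Hba-a2 window (chr11:32296242-32296491, plus strand) shared an unbroken run of 247 bases with that of Hba-a1 and is not printed. The globin windows each held 1 ATATAA match, starting 30 bases before the start of transcription in Hbb-bs, 29 in Hbb-bt and 28 in Hba-a1, and the Alas2 window held 0. CACCC matched 1 time in Hbb-bs, 3 times in Hbb-bt, 2 times in Hba-a1 and 3 times, end to end on the opposite strand, in Alas2. CCAAT matched 1 time in Hbb-bs and in Hba-a1 and 3 times in Hbb-bt, where the matches on the opposite strands at 80 and 75 bases before the start stand side by side in the run ATTGGCCAAT. AGATAA matched 1 time in Hbb-bs and 1 time in Alas2. Of 32851 RefSeq windows of the same length and place, 52.0% held CACCC, 33.8% CCAAT, 9.99% AGATAA and 9.10% ATATAA. These matches are descriptions of the letters, not of binding.

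Haemoglobin filled these barcodes almost completely, which is what the rule asked for and is given without a test. The haemoglobin share had a median of 95.7% (lowest 61.6%, highest 98.4%) in Cre plus and 95.4% (50.7% to 97.8%) in Cre minus. Few barcodes lay near the threshold. The 3 nearest inside it stood at 61.6%, 61.7% and 64.6% in Cre plus and at 50.7%, 69.0% and 73.9% in Cre minus. The 3 nearest outside it stood at 41.2%, 24.3% and 12.1%, and at 49.9%, 46.9% and 44.3%. The red cell barcodes held 98.6% and 97.9% of all haemoglobin UMIs of their libraries. Other barcodes had a median of 1 haemoglobin UMI in both libraries, and 60.4% and 67.1% of them had at least 1.

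**Figure D1:**
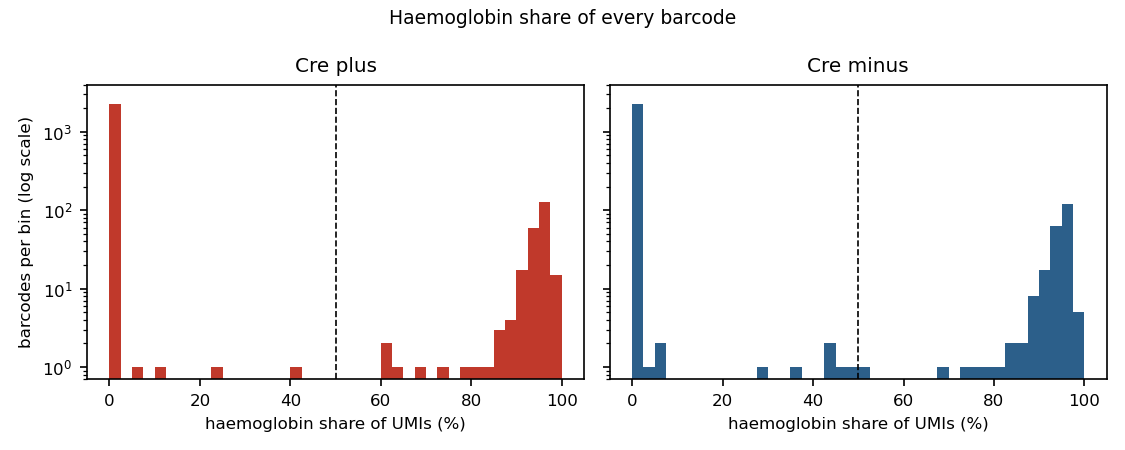
Haemoglobin share of the UMIs of every barcode (horizontal axis, percent) against the number of barcodes per bin (vertical axis, log scale) in Cre plus (left) and Cre minus (right). The dashed line is the 50% threshold; most of the 457 barcodes to its right lie above 90%, and few lie in between.

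The median red cell barcode held 6761 UMIs (Cre plus) or 7831 (Cre minus), close to the 8520 and 7482 of other barcodes. Outside haemoglobin it held little: a median of 256.5 UMIs (31 to 6333) from 118.5 genes in Cre plus and 324 UMIs (58 to 10786) from 138 genes in Cre minus, both gene counts including the globins. The summed non-haemoglobin RNA, 100151 and 113670 UMIs, is the material of all results that follow. Other barcodes summed to 65006262 and 75120016 non-haemoglobin UMIs. The 10 red cell barcodes richest in non-haemoglobin RNA held 25.6% and 26.4% of it, and only 5 barcodes in each library had at least 500 genes. The whole libraries held 66704257 and 76967583 UMIs, and they shared 1 barcode sequence, which was no red cell barcode in either. Doublets were not called, so a barcode may hold RNA of more than 1 cell.

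The globin RNA was that of the adult genes. Hbb-bs (ENSMUSG00000052305, chr7:103826534-103828096) gave 58.0% of the haemoglobin UMIs for Cre plus and 56.6% for Cre minus, and its neighbour Hbb-bt (ENSMUSG00000073940, chr7:103812524-103813996) 9.66% and 9.07%. Hba-a1 (ENSMUSG00000069919, chr11:32283511-32284465) gave 18.5% and 19.7%, and Hba-a2 (ENSMUSG00000069917, chr11:32296489-32297298) 13.8% and 14.7%. The embryonic genes Hbb-y, Hbb-bh2 and Hba-x had 0 UMIs in both libraries, and Hbb-bh1 had 0 and 2. The near-identical copies can exchange or lose UMIs in the authors' counting, so the split within each pair is uncertain. Theta globin genes, alpha-like genes that the rule did not use, were present at low level: Hbq1a had 47 and 60 UMIs and Hbq1b 52 and 48.

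Alpha genes made up a median of 31.9% of haemoglobin UMIs for Cre plus and 34.4% for Cre minus. The 25th and 75th percentiles were 29.1% and 34.8%, and 32.1% and 36.4%, and the full range was 14.5% to 58.3% and 14.4% to 53.7%. Hba-a1 held a median of 57.2% and 57.6% of alpha UMIs.

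The split of the beta genes followed the amount of haemoglobin RNA. Hbb-bs made up 83.7% and 94.2% of beta UMIs at the 25th and 75th percentiles in Cre plus, and 84.5% and 94.9% in Cre minus. Hbb-bt ranged from 0.229% to 26.7% of the beta UMIs of a barcode in Cre plus and from 0.491% to 24.3% in Cre minus. When red cell barcodes were put in 4 equal groups by their haemoglobin UMIs, the median Hbb-bt share was 3.39%, 8.38%, 14.8% and 17.2% from the poorest to the richest group in Cre plus. In Cre minus it was 3.35%, 8.28%, 14.4% and 17.3%. The medians of the alpha share over the same groups were 31.8%, 31.5%, 30.6% and 33.0% in Cre plus and 34.7%, 34.1%, 33.9% and 35.2% in Cre minus. Spearman's correlation with the haemoglobin UMIs of a barcode was 0.75 (234 barcodes) and 0.85 (223 barcodes) for the Hbb-bt share, against 0.081 and −0.016 for the alpha share. The points share a library and both axes hold globin UMIs, so these correlations are descriptions. A barcode with more haemoglobin UMIs may hold more RNA or may have been captured better, which cannot be told apart.

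Red cell genes other than globins took a large share of what was left. The 7 lists for haem synthesis, iron, the red cell membrane, erythroid transcription factors, organelle and protein clearance, antioxidant and metabolic enzymes and late erythroid genes, 86 genes in all, made up 30.0% of the non-haemoglobin UMIs of red cell barcodes in Cre plus, against 1.39% in other barcodes (log2 ratio 4.43 [4.41, 4.45]). In Cre minus they made up 26.6% against 1.61% (4.05 [4.03, 4.06]). These sums cover every listed gene with no minimum. Of 819 genes with at least 20 UMIs seen in red cell barcodes or expected there from other barcodes, in both libraries, 21.9% were at least 2-fold higher in both and 56% at least 2-fold lower in both. By library, 21.5% of 906 genes (Cre plus) and 20.9% of 984 (Cre minus) were higher, and 56.6% and 70.2% lower. Of these genes 164 and 161 reached the minimum only through their UMIs in red cell barcodes, so they could not be lower there. Of the 742 and 823 genes that reached it on expected UMIs, 41 and 51 were at least 2-fold higher. The shares called higher therefore rest largely on the minimum. Of the 86 listed genes 37 were among the 819, and all 37 were higher in both, with a median log2 ratio of 5.84 (Cre plus) and 5.56 (Cre minus) beside −1.24 and −1.96 over the 819. That count is no support in itself, since 30 of the 37 reached the minimum only through red cell barcodes in at least 1 library. In that library their level had to be above that of other barcodes, though not by 2-fold. With the minimum applied in each library alone, 39 of 39 listed genes were at least 2-fold higher in Cre plus. In Cre minus 38 of 40 were, and 1, of the antioxidant and metabolic list, was at least 2-fold lower. Of the 86 listed genes 4 had 0 UMIs in red cell barcodes of both libraries. A UMI count is per molecule and is not scaled by gene length. How far capture and mapping differ between genes was not tested, so levels of different genes are set side by side as descriptions only.

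**Figure D2:**
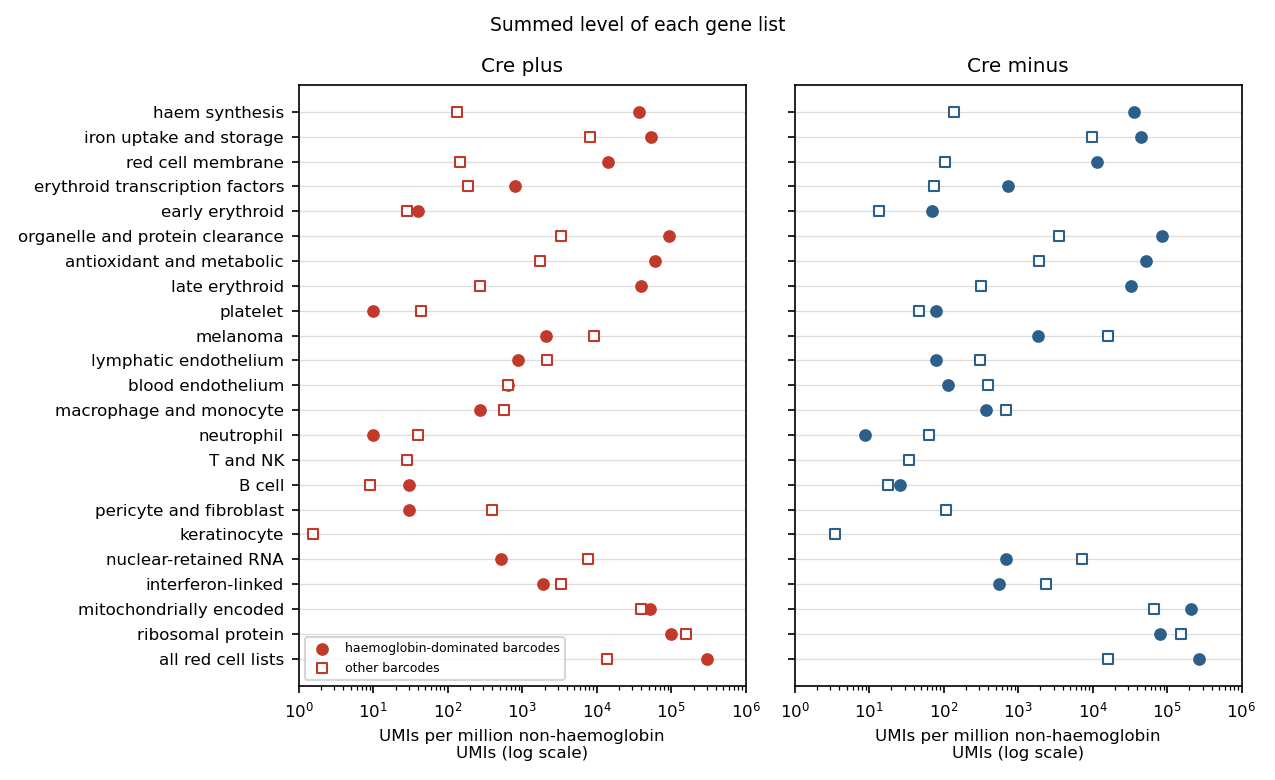
Summed level of each gene list in UMIs per 1000000 non-haemoglobin UMIs (horizontal axis, log scale) in red cell barcodes (filled circles) and other barcodes (open squares) of Cre plus (left) and Cre minus (right). Lists with 0 UMIs have no point; the red cell lists sit to the right in red cell barcodes, at 299687 CPM in all for Cre plus, and nuclear-retained RNA and melanoma genes to the left.

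Haem synthesis was carried by its first and last enzymes. Alas2, the red cell form of the rate-limiting first enzyme (ENSMUSG00000025270, chrX:150547375-150570638), had 3167 UMIs (Cre plus) and 3539 (Cre minus). That is 31622 and 31134 CPM (UMIs per 1000000 non-haemoglobin UMIs), against 1.34 and 1.01 in other barcodes (log2 ratios 14.53 [14.22, 14.85] and 14.91 [14.58, 15.26]). Fech, the last enzyme, which inserts iron, stood at 4763 and 4856 CPM against 24.0 and 25.7. Urod, an enzyme between them, had 22 and 31 UMIs. The list as a whole made up 3.67% and 3.64% of the non-haemoglobin UMIs, and 3 of its 8 genes could be read in both libraries.

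Alas2 was the most widespread of these genes apart from ferritin. It was seen in 94.9% of red cell barcodes for Cre plus and 95.1% for Cre minus. After every barcode was thinned to 162 non-haemoglobin UMIs, which left out 66 and 44 shallower red cell barcodes and no other barcode, the share was 97.0% and 95.5%. Other barcodes had an Alas2 UMI in 1.91% and 1.80% before thinning, and in 0.0443% and 0% after it (1 and 0 barcodes; a count of 0 of 2279 allows up to 0.162% by the exact interval). Of the Alas2 UMIs in other barcodes, 41.4% and 28.9% were in the 3 and 6 barcodes with over 10% haemoglobin.

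Among iron genes, those for storage and mitochondrial import were abundant and the uptake receptor was scarce. Ftl1 and Fth1, the light and heavy chains of ferritin, stood at 38322 and 29735 and at 9975 and 9545 CPM, with log2 ratios over other barcodes of 3.21 [3.16, 3.25] and 2.47 [2.42, 2.51] for Ftl1 and 1.45 [1.36, 1.54] and 1.20 [1.11, 1.29] for Fth1. Slc25a37, the mitoferrin that carries iron into mitochondria for haem, had 510 and 644 UMIs (8.76 [8.59, 8.92] and 8.93 [8.78, 9.08]). Tfrc, the transferrin receptor through which earlier precursors take up iron, had only 5 and 13 UMIs, at −1.40 [−3.02, −0.18] and −0.64 [−1.55, 0.13].

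Genes of the membrane and its skeleton made up 1.43% and 1.14% of non-haemoglobin UMIs. Epb41, protein 4.1 of the skeleton, was the most abundant with 715 and 764 UMIs, in 76.9% and 82.5% of red cell barcodes. Slc4a1, the anion exchanger band 3, had 101 and 84 UMIs against 2 and 1 (15 [13.11, 18.07] and 15.76 [13.24, 21.08]). Tspo2, an erythroid membrane protein that binds cholesterol, had 153 and 104. Slc4a1 was in 22.2% and 15.7% of red cell barcodes and Tspo2 in 24.8% and 23.8%, fewer than Alas2 or Epb41. Both also had fewer UMIs than those genes, which by itself limits the number of barcodes with a UMI.

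Transcription factors of the red cell lineage had few UMIs, 81 and 83 over the list, most of them from Lmo2 and Foxo3. The summed list was still higher than in other barcodes, at 2.09 [1.75, 2.40] and 3.31 [2.97, 3.62]. Gata1 and Klf1, the main activators of globin genes, had 0 and 2 and 0 and 0 UMIs, Tal1 2 and 0, Gfi1b 0 and 0, and Nfe2 3 and 3. Lmo2, an adaptor of the GATA complex, had 50 and 61 UMIs, at 2.07 [1.64, 2.47] in Cre plus and 5.11 [4.71, 5.48] in Cre minus, while its level in other barcodes was 119 and 15.6 CPM. Foxo3, which acts in late precursors, had 22 and 16, which is 220 and 141 CPM against 27.7 and 29.5 in other barcodes. Of the genes of earlier precursors, Epor, Gata2, Myb and Kit had 0 UMIs in both libraries. Hemgn had 4 and 8, against 3 and 4 in all other barcodes. At the floor of 3 counts, a count of 0 allows up to 30.0 and 26.4 CPM, so low levels were not detectable.

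Of the 7 red cell lists the largest share went to organelle and protein clearance, 9.39% and 8.68% against 0.328% and 0.358% in other barcodes, with 10 of 15 genes readable in both libraries. Ubb, a ubiquitin gene, stood at 25961 and 26902 CPM, and the ubiquitin ligase Mkrn1 at 21677 and 19706. Ube2l6, an enzyme that conjugates ubiquitin and the ubiquitin-like ISG15, had 1100 and 1209 UMIs (8.92 [8.80, 9.03] and 9.21 [9.10, 9.33]). Bnip3l, also called Nix, which is needed to clear mitochondria from reticulocytes, had 1073 and 1102 UMIs (5.32 [5.23, 5.41] and 5.03 [4.95, 5.12]).

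Antioxidant and metabolic enzymes made up 6.11% and 5.25%. Bpgm (ENSMUSG00000038871, chr6:34476207-34505613) makes the 2,3-bisphosphoglycerate that lowers the oxygen affinity of haemoglobin, and had 2771 and 2889 UMIs (10.33 [10.24, 10.42] and 10.03 [9.94, 10.11]). Car2, carbonic anhydrase, had 868 and 622 UMIs, in 29.9% and 26.5% of red cell barcodes. The peroxide-removing enzymes Gpx1 and Prdx2 had 905 and 852 and 485 and 539. Late erythroid genes made up 3.93% and 3.27%. Tent5c, a poly(A) polymerase, had 893 and 885 UMIs, and the exonuclease Isg20 654 and 708. Bcl2l1, the survival factor Bcl-xL, had 94 and 86 UMIs (4.55 [4.24, 4.85] and 5.05 [4.72, 5.37]).

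Ranked over all genes by the interval bound nearest to 0 in the less favourable library, the highest genes included Alas2, Tspo2, Slc4a1, Ube2l6, Bpgm, Car2, Tent5c, Apol11b, Hbq1b, Hbq1a, Paqr9, Aldh1a1, Fam220a and Cd24a. Apol11b, an apolipoprotein L family gene (ENSMUSG00000091694, chr15:77633946-77643286), had 287 and 186 UMIs against 1 and 6 in other barcodes (17.51 [15.02, 22.82] and 14.32 [13.17, 15.79]). Paqr9, a membrane receptor family gene, had 38 and 35 UMIs against 0 and 4. Cd24a, a surface glycoprotein of immature red cells in mice, had 405 and 409, at 9.32 [9.12, 9.53] and 11.63 [11.29, 11.99]. Aldh1a1, a retinaldehyde dehydrogenase, had 50 and 89. Fam220a (ENSMUSG00000118332) had 260 and 218, and a second gene of the same symbol (ENSMUSG00000083012) that overlaps it had 2 and 0, so that reads may be split between them.

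**Figure D3:**
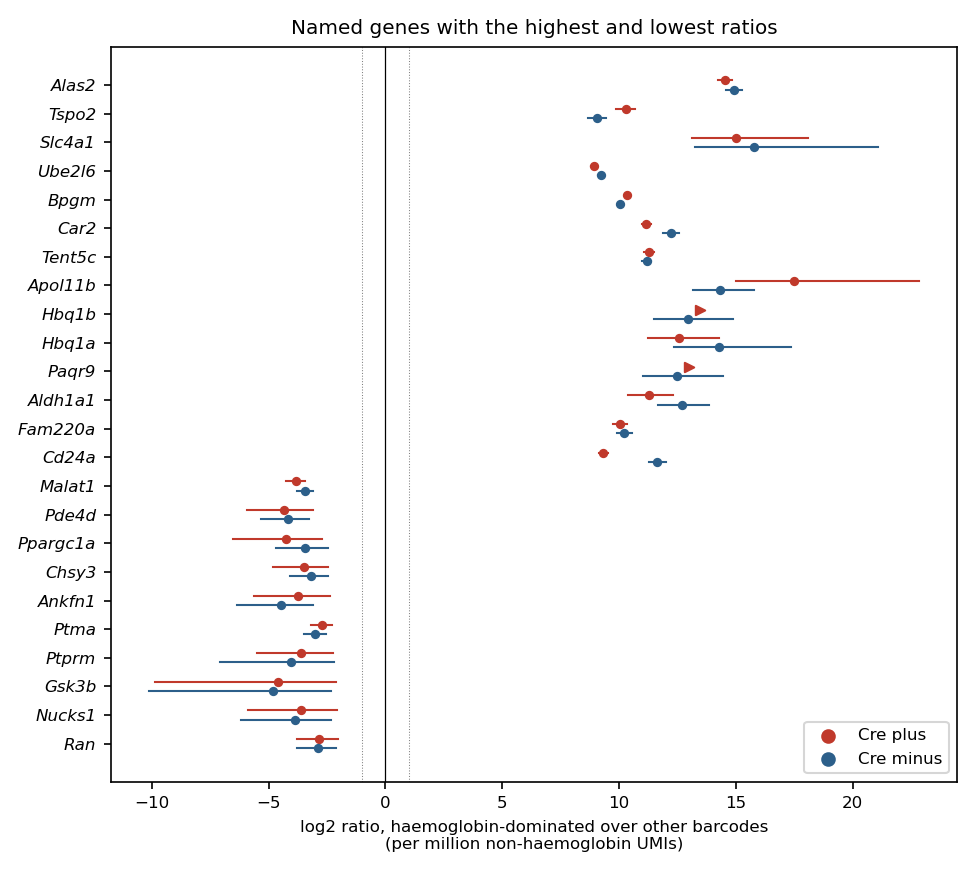
Log2 ratio in red cell barcodes over other barcodes, from CPM (horizontal axis), of the genes named as highest or lowest by the interval bound nearest to 0. Cre plus is red and Cre minus blue. Lines are 95% intervals for counting error, triangles are values at the floor of 3 counts for Hbq1b and Paqr9, which had 0 UMIs in other barcodes of Cre plus, and dotted lines mark 2-fold; Alas2 stands near 15 and Malat1 below −3.

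The lowest gene by the same rule, Malat1, a long RNA kept in the nucleus, had 51 and 74 UMIs, 509 and 651 CPM against 7314 and 7006 (−3.84 [−4.27, −3.45] and −3.43 [−3.78, −3.10]). After thinning it was in 8.33% and 11.2% of red cell barcodes and in 31.9% and 25% of other barcodes (before, 15.8% and 23.8%, and 58.2% and 52.9%). The nuclear RNAs Neat1 and Kcnq1ot1 had 1 and 3 and 0 and 1 UMIs, and the list of 4 such RNAs stood at −3.87 [−4.29, −3.48] and −3.39 [−3.73, −3.07]. Ptma, prothymosin alpha, had 42 and 37 UMIs (−2.72 [−3.20, −2.29] and −2.99 [−3.50, −2.53]), and Ran, a GTPase of nuclear transport, 12 and 13 (−2.83 [−3.78, −2.03] and −2.89 [−3.80, −2.12]). The other 7 of the 10 lowest were Pde4d, Ppargc1a, Chsy3, Ankfn1, Ptprm, Gsk3b and Nucks1, with 1 to 14 UMIs each. Genes of ribosomal proteins made up 9.91% and 7.99% of non-haemoglobin UMIs, against 16.0% and 15.6%.

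Markers of other cells were few in number in red cell barcodes, but not all were lower there than in other barcodes. The 7 melanoma genes had 207 and 212 UMIs, 2067 and 1865 CPM against 9267 and 16046 in other barcodes (−2.16 [−2.37, −1.97] and −3.10 [−3.31, −2.91]), of which Dct alone gave 5240 and 8889 CPM in other barcodes. Of the 207 UMIs in Cre plus 43.5% were in red cell barcodes with at least 500 genes, and 87 were in 1 barcode. In Cre minus 7.08% were in such barcodes, and at most 13 in any 1. Dct, a pigment enzyme, was in 11.9% and 14% of thinned red cell barcodes and 17.3% and 30.9% of thinned other barcodes. Lymphatic endothelial genes had 88 and 9 UMIs, at −1.29 [−1.61, −0.99] and −1.98 [−3.11, −1.06], and 84.1% of those in Cre plus were in barcodes with at least 500 genes. Blood endothelial genes had 65 and 13 UMIs, and 92.3% of those in Cre plus were in such barcodes. Their level in Cre plus was that of other barcodes within counting error, at −0.01 [−0.38, 0.34], and in Cre minus it was lower, at −1.81 [−2.72, −1.03]. Macrophage and monocyte genes had 27 and 42 UMIs, at −1.08 [−1.69, −0.54] and −0.90 [−1.37, −0.46]. Platelet genes had 1 and 9 UMIs, at −2.12 [−7.43, 0.36] and 0.74 [−0.39, 1.67], and B cell genes 3 and 3, at 1.72 [−0.57, 3.27] and 0.54 [−1.73, 2.10], so that neither list could be placed above or below other barcodes. Neutrophil genes had 1 and 1 UMIs, pericyte and fibroblast genes 3 and 0, and T and NK and keratinocyte genes 0 and 0. The T and NK list stood at 28.6 and 34.4 CPM in other barcodes, and the exact interval on its log2 ratio reached up to 0.37 and −0.08. The genes of the sort markers, chosen after values were seen, were Pecam1 (CD31), with 14 UMIs in 4 barcodes of Cre plus and 0 in Cre minus, and Ptprc (CD45), with 0 in both. Free RNA, mixed barcodes and expression by the red cells themselves cannot be told apart from these counts.

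Mitochondrial RNA was low in most red cell barcodes and high in a few. The median share of mitochondrially encoded genes in non-haemoglobin UMIs was 1.22% (Cre plus) and 2.23% (Cre minus), against 2.45% and 4.05% in other barcodes. Pooled over all red cell UMIs it was 5.13% [5.0, 5.27] and 21.0% [20.7, 21.2], against 3.94% and 6.64%, and 18 and 39 barcodes with over 10% held 67.4% and 92.8% of these UMIs. A single Cre minus barcode, the one nearest the threshold at 50.7% haemoglobin, held 9380 of the 23839. Other barcodes with under 500 genes, the ones most like red cell barcodes in gene number (326 and 429 barcodes, medians of 153.5 and 149 genes), had median mitochondrial shares of 86.8% and 92.9%. The red cell lists stood at log2 ratios of 6.70 and 7.23 over those barcodes.

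Red cell barcodes rich and poor in haemoglobin RNA differed in which other red cell mRNAs they held. Per 10000 haemoglobin UMIs, Alas2 was about level over the 4 groups from poorest to richest, at 17.3, 20.8, 22.4 and 18.9 in Cre plus and 18.2, 23.5, 21.3 and 19.9 in Cre minus. Bpgm went up in the same order, at 5.31, 9.13, 15.6 and 24.7, and at 3.12, 7.57, 16.8 and 24.0. Mkrn1 stood at 2.89, 7.11, 11.0 and 20.4, and at 1.49, 7.67, 14.4 and 17.0. Both genes were higher, relative to haemoglobin, in every richer group in both libraries. Slc25a37 and Ftl1 had flatter courses: Slc25a37 was at 2.89 and 2.55 in the poorest groups and 3.25 and 4.72 in the richest, and Ftl1 at 26.1 and 24.0, and 25.2 and 17.1. The groups cover 848 to 3823 and 9079 to 19772 haemoglobin UMIs at the ends in Cre plus, and 1280 to 4076 and 10916 to 19993 in Cre minus. The order and the denominator share the haemoglobin count, and the genes were chosen after values were seen.

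**Figure D4:**
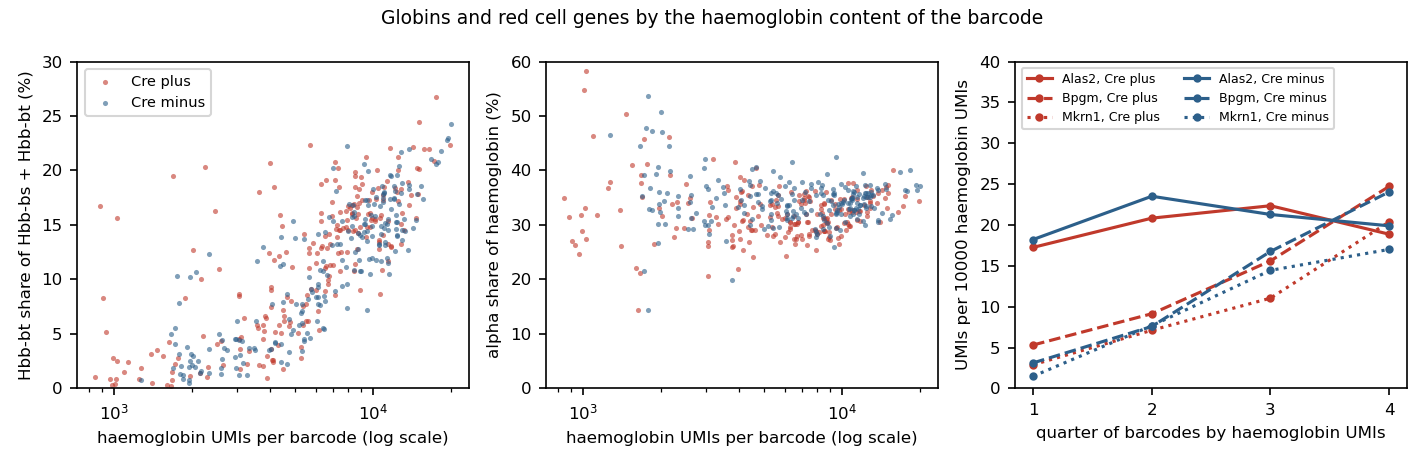
Hbb-bt share of the beta UMIs (left, percent) and alpha share of haemoglobin UMIs (middle, percent) of each red cell barcode against its haemoglobin UMIs (log scale), and Alas2, Bpgm and Mkrn1 per 10000 haemoglobin UMIs in 4 equal groups from poorest to richest (right), for Cre plus (red) and Cre minus (blue). The Hbb-bt share climbs from medians of 3.39% and 3.35% to 17.2% and 17.3%, while the alpha share stays between 30.6% and 35.2% by group medians.

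Car2 and Slc4a1 were concentrated in the richest group. Car2 was seen in 4, 7, 19 and 40 barcodes of the 4 groups in Cre plus (59, 59, 58 and 58 barcodes) and in 1, 5, 16 and 37 in Cre minus (56, 56, 56 and 55). Slc4a1 was in 1, 4, 11 and 36 and in 0, 1, 7 and 27. Alas2 was in 48, 58, 58 and 58 and in 45, 56, 56 and 55, nearly every barcode of all but the poorest group. Per 10000 haemoglobin UMIs Car2 stood at 0.62, 0.44, 1.24 and 11.3 in Cre plus and at 0.071, 0.22, 1.55 and 7.37 in Cre minus. Richer barcodes are also deeper, so shares of barcodes with a UMI rise with depth as well.

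Between the libraries the listed red cell genes differed little. Over 700 genes with at least 20 UMIs in red cell barcodes of both libraries together, the median log2 ratio of Cre plus over Cre minus was 0.32, a shift of all genes that was 0.069 with mitochondrial UMIs left out of the total. Of the 700 genes 18.4% were at least 2-fold higher and 4% at least 2-fold lower in Cre plus. Of the 28 lower genes 13 were the mitochondrially encoded ones, at −2.03 [−2.07, −1.99] as a list. In Cre minus 9380 of the 23839 UMIs of that list were in 1 barcode. Of 42 red cell genes among them 0 passed 2-fold in either direction. The summed red cell lists stood at 0.17 [0.15, 0.20], or −0.15 relative to the shift, and at −0.090 with mitochondrial UMIs left out of the total, so no direction can be given. Alas2 stood at 0.02 [−0.05, 0.09] and Bpgm at 0.12 [0.05, 0.20]. Car2 stood at 0.66 [0.51, 0.81], Tspo2 at 0.74 [0.37, 1.11] and Apol11b at 0.81 [0.54, 1.08], which were 0.34, 0.42 and 0.49 relative to the shift. On the other side Aldh1a1 stood at −0.65 [−1.18, −0.13] and Slc25a37 at −0.15 [−0.32, 0.02], which were −0.97 and −0.47 relative to the shift. With 1 pool per genotype these are differences between libraries.

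Of the genes that differed most between the libraries, those higher in Cre plus were mostly held by few barcodes. Genes were ranked by the interval bound nearest to 0, which favours genes with more UMIs over larger ratios on fewer. The 5 highest in Cre plus were Igfbp4 (49 and 1 UMIs, 25 in 1 barcode), Rhoc (25 and 0, 15 in 1 barcode), Fabp4 (144 and 13, 113 in 1 barcode), Ptn (24 and 0, 23 in 1 barcode) and Ccl21a (60 and 4, 52 in 1 barcode). Ccl21a is a lymphatic chemokine and Fabp4 a fatty acid carrier of vessel and fat cells. All of these 5 genes were also higher in Cre plus among other barcodes. There Ccl21a stood at 1162.8 and 168.7 CPM, Fabp4 at 1068.6 and 279.5, and Igfbp4 at 379.7 and 106.6. Rhoc stood at 296.4 and 136.8 CPM and Ptn at 48.0 and 33.1. Among red cell barcodes with under 500 genes the log2 ratio of Ccl21a went from 4.09 to 0.99 and that of Fabp4 from 3.65 to −1.19. Interferon-linked genes had 193 and 64 UMIs (1.78 [1.36, 2.21]), and 63.7% of the Cre plus UMIs were in barcodes with at least 500 genes. The list was also higher in other barcodes of Cre plus, at 3341.9 CPM against 2346.7 in those of Cre minus. B2m, the light chain of MHC class I, had 98 and 19 UMIs. H2-D1, also of this list, had 53 and 8, with 24 in 1 Cre plus barcode. Among other barcodes B2m stood at 1060.4 and 817.8 CPM and H2-D1 at 691.4 and 373.4. In red cell barcodes with under 500 genes B2m went from 2.55 to 1.35 and H2-D1 from 2.91 to 0.35. In the same barcodes Igfbp4 went from 5.8 to 1.18, Cst6 from −5.34 to −1.40 and Rec114 from −1.34 to −1.28, and the genes at least 2-fold higher from 129 to 33. Of the 5 lowest by that bound, March5 and Pabpc1 did not reach 2-fold. Cst6, a protease inhibitor, had 1 and 46 UMIs with 43 in 1 barcode. Lyz2, a macrophage lysozyme, had 4 and 19, with at most 1 and 2 in any 1 barcode. Rec114 (48 and 138 UMIs, −1.34 [−1.85, −0.86]), March5, a ubiquitin ligase of mitochondria (41 and 90, −0.95 [−1.52, −0.40]), and Pabpc1, which binds poly(A) tails (599 and 980, −0.53 [−0.68, −0.38]), were spread over more barcodes, with at most 11, 10 and 44 UMIs in any 1. Cst6, Lyz2 and Rec114 were also lower in Cre plus among other barcodes, with Lyz2 at 167.6 and 280.0 CPM. March5 and Pabpc1 went the other way there, at 100.9 and 92.5 CPM and at 376.0 and 344.1 CPM. How far the differences in red cell barcodes are those of the whole library was not tested. Ifngr1 had 2 and 0 UMIs and Prox1 2 and 2 in red cell barcodes, too few to check the genotype there.

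**Figure D5:**
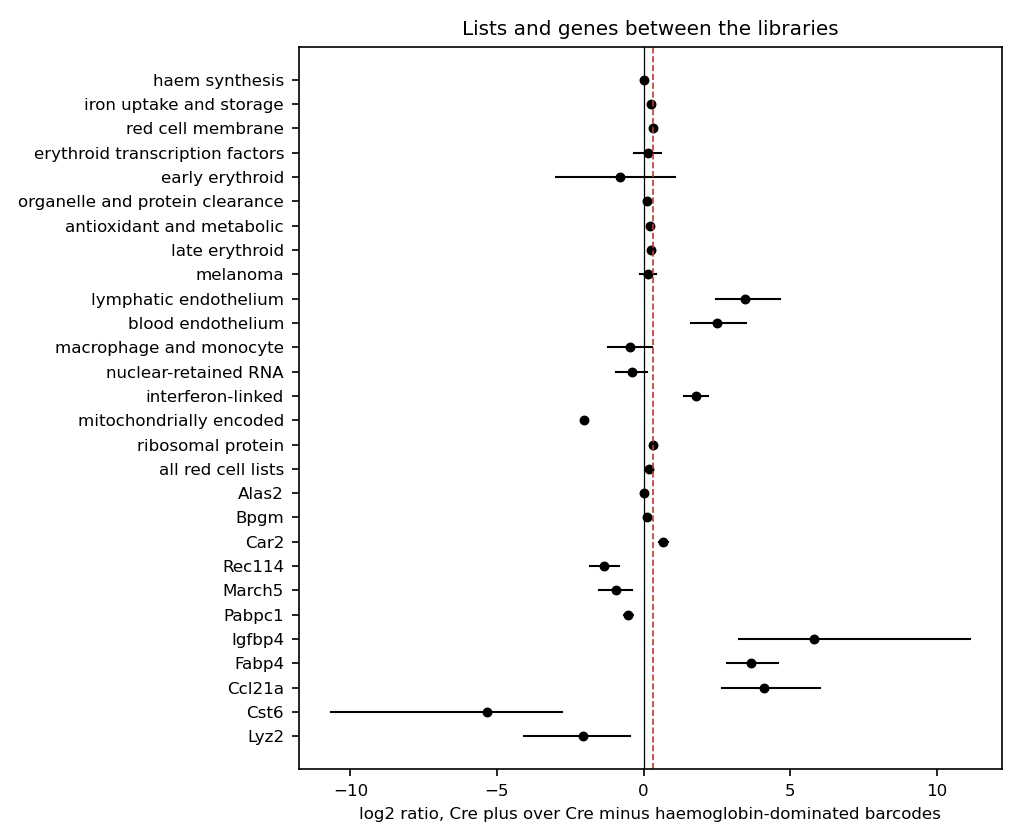
Log2 ratio of Cre plus over Cre minus red cell barcodes (horizontal axis) for gene lists and named genes, with 95% intervals for counting error. The dashed line is the median of 700 genes, 0.32; the red cell lists lie near it, endothelial and interferon-linked lists to the right, and mitochondrially encoded genes at −2.03.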

How the data were processed

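Single-cell 3′ libraries (kit v3.1) of sorted skin tumor cells were analysed, 1 per genotype. Values in both deposited tables are UMI counts, not normalized, of 32285 genes in each barcode. Cell Ranger 7.0.0 and mm10 are listed in the submitters' processing notes; the annotation, and whether intronic reads were counted, are not given in the sources used here. Gene positions came from GENCODE M21 (99.8% of genes matched by identifier), promoters from RefSeq.

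Python 3.11.15, numpy 2.4.6, scipy 1.17.1, pandas 2.3.3 and matplotlib 3.10.9 were used. Haemoglobin UMIs were left out and the rest summed per library over red cell barcodes and over all others, as CPM, UMIs per 1000000 non-haemoglobin UMIs. A gene was read at 20 UMIs or 20 expected, and called past 2-fold; a count of 0 was set to a floor of 3 counts in ratios. The calculation was tested on simulated data. Genes named singly were the globins, Alas2, Ifngr1 and Prox1, up to 4 of most UMIs per list, the 16 highest and 10 lowest against other barcodes and the 5 highest and 5 lowest between libraries, both by the interval bound nearest to 0, these last sets leaving out haemoglobin, mitochondrial, ribosomal protein, X-inactivation, Y-linked and unnamed genes; a few named beyond the rule are marked, and a few within it are not reported here. Members, lists and tests were chosen with earlier results of these data known. Of 197 listed genes 1 (Ahsp) is not analysed here. Alternatives covered the haemoglobin threshold, barcode filters, a mean over barcodes, the UMI minimum, the total and thinning.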

Additional observations from a re-analysis of the deposited data

How the results depend on the processing

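No paired analysis was possible because each genotype is 1 library, and leaving out a replicate was not possible for the same reason. Values are given for Cre plus and then Cre minus. Requiring 500 genes and under 10% mitochondrial UMIs left 5 and 3 red cell barcodes.

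The log2 ratio of the red cell lists over other barcodes (4.43 and 4.05) was 4.65 and 4.24 with haemoglobin over 75%, 4.74 and 4.36 over 90%, 4.68 and 4.46 as a mean over barcodes, 4.67 and 4.22 in red cell barcodes with under 500 genes, 6.70 and 7.23 against other barcodes with under 500 genes, and 4.45 and 4.29 with mitochondrial UMIs left out of the total. It was 4.0 for Cre minus against other barcodes that pass both of those filters. In red cell barcodes with at most 10% mitochondrial RNA, a setting chosen after seeing the data, it was 4.49 and 4.41.

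Genes at least 2-fold higher (195 and 206) numbered 1682 and 1747 with no minimum and 373 and 367 against other barcodes with under 500 genes. Genes at least 2-fold lower (513 and 691) numbered 3721 and 3771 with no minimum, 167 and 250 at 50 UMIs, 14 and 13 against other barcodes with under 500 genes, and 441 in Cre minus as a mean over barcodes.

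The pooled mitochondrial ratio (log2 0.38 and 1.66) has no stable direction. It was 0.074 and 0.80 with haemoglobin over 75%, 0.53 and 0.87 in red cell barcodes with under 500 genes, and 0.85 and 2.49 against other barcodes passing both filters. It reversed to −0.40 and −0.34 with haemoglobin over 90%, to −1.81 and −1.49 as a mean over barcodes, to −3.98 and −2.11 against other barcodes with under 500 genes, and to −1.11 and −1.56 in red cell barcodes with at most 10% mitochondrial RNA.

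Between the libraries the red cell lists (0.17) were at 0.21 with haemoglobin over 75%, 0.14 as a mean over barcodes and 0.25 in barcodes with under 500 genes. They reversed to −0.090 with mitochondrial UMIs left out of the total and to −0.13 in barcodes with at most 10% mitochondrial RNA. Genes at least 2-fold higher (129) numbered 34 at 50 UMIs, 35 and 19 with haemoglobin over 75% and 90%, 59 as a mean over barcodes and 33 under 500 genes. Genes at least 2-fold lower (28) numbered 15, 44 (over 90%), 90 and 46. The median of all genes (0.32) reversed to −0.066 with haemoglobin over 90% and to −0.049 as a mean over barcodes, and Fabp4 to −0.90 with haemoglobin over 90% and to −1.19 under 500 genes. The causes were not tested.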

Other observations

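Further genes were also high in red cell barcodes, and those below were chosen after their values were seen. Rsad2 is outside the lists, while Ube2o and Rnf10 belong to the organelle and protein clearance list and are part of its sums. Rsad2, the interferon-linked antiviral enzyme viperin, had 474 UMIs in 104 red cell barcodes of Cre plus and 354 in 90 of Cre minus. That is 4733 and 3114 CPM (UMIs per 1000000 non-haemoglobin UMIs), against 85.6 and 34.1 in other barcodes (log2 ratios 5.79 [5.65, 5.92] and 6.51 [6.35, 6.67]). The summed interferon-linked list was lower in red cell barcodes, at −0.79 [−1.01, −0.59] and −2.06 [−2.44, −1.71]. Ube2o, a ubiquitin enzyme that acts in reticulocytes, had 273 and 232 UMIs (6.53 [6.34, 6.71] and 6.11 [5.91, 6.31]), and Rnf10, a RING finger protein, 493 and 542 (5.61 [5.48, 5.75] and 5.56 [5.43, 5.68]).

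Other barcodes with over 10% haemoglobin, 3 in Cre plus and 6 in Cre minus, held 59.9% and 40.2% of the haemoglobin UMIs found outside red cell barcodes.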
